A study of Mus musculus with 6 samples.

Results

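The minor spliceosome is a second splicing machine that removes a small class of introns, the U12-type introns, from otherwise ordinary genes. Its 8 proteins of the U11 and U12 particles are described here, in heads of mouse embryos with and without Sf3b4 in neural crest cells. The members were chosen by symbol and not by their measured values, though with earlier results of these data known. They are Snrnp25, Snrnp35, Snrnp48, Pdcd7, Zcrb1, Rnpc3, Zmat5 and Zrsr2. Each matched 1 Ensembl gene ID among the 54532 in the counts, and all 8 were among the 14008 genes with enough reads to be tested. The pools held 6930827 to 12251910 counts each, and a member 75 to 669 counts per pool. Total RNA was sequenced from 6 pools of 3 heads each at embryonic day 8.5, 3 pools wild type and 3 mutant, before abnormalities of form were visible. By title the mutants are homozygous nulls, but by genotype entry and design they lack Sf3b4 in neural crest cells only. No source used here names the Cre driver, the strain or the litters. Where pools of a genotype are not separate litters, the p-values measure only the spread between these pools.

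In U12-type introns the U11 particle recognises the 5′ splice site and the U12 particle the branch site, and both are joined in 1 di-particle before they meet the intron. In U2-type introns, the common class, separate U1 and U2 particles do these jobs. The SF3B complex, of which SF3B4 is a subunit, is shared: it sits in the U2 particle and in the U11/U12 di-particle and holds the branch site. Human mutations in several minor spliceosome genes cause disorders of growth and development, and mutations in SF3B4 cause Nager syndrome, a disorder of the face and limbs.

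Sf3b4, the deleted gene, was read at 77.7, 72.8 and 63.9 CPM in wild-type heads and 56.1, 64.2 and 60.9 CPM in mutant heads, and did not pass (log2 fold change -0.24, SE 0.0918, edgeR adjusted p = 0.128). The highest mutant pool was just above the lowest wild-type pool. The loss of single exons cannot be seen in these counts. Of the 50-base stretches of Sf3b4, 45.3% also occur in transcripts of Gm7935 or Gm17690, and Gm7935 held 6 to 16 counts per pool. CPM is the usual depth-scaled read count, here on library sizes scaled with TMM. The whole-head pools hold many cell types, and fewer cells of a type and less RNA per cell cannot be told apart in them.

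None of the 8 members passed the test. Zrsr2, Snrnp25 and Snrnp35 had all 3 mutant pools above all 3 wild-type pools, by 23.2%, 19.9% and 14.3% in the fitted means, and Rnpc3 had the largest difference of the 8, 40.8%, with overlapping groups. The other 4 lay within 11.96% of the wild type in either direction. The background was 6.52% of all tested genes past the threshold, 2.65% higher and 3.88% lower (two-sided quasi-likelihood test of edgeR, threshold 0.05 on the p adjusted by Benjamini and Hochberg). All 3 mutant pools lay above all 3 wild-type pools in 13.8% of all tested genes, and above or below them in 28.3%. Of the 8 members, 3 had an unadjusted p under 0.05, against 23.2% of all tested genes. With DESeq2 and with limma-voom the count past the threshold was 0 as well, but it was 1 or 2 under some other settings, all through Rnpc3 and Zrsr2.

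Sequence elements that can bind the minor spliceosome lie inside 2 of the members, and they are shown because these 2 are known to be regulated through them. A U12-type 5′ splice site begins with ATATCCTT or GTATCCTT. In annotated transcripts of the 8 members these letters, searched on the transcript strand only, occurred in Rnpc3 and Snrnp48 and in no other member. In each they stood as a pair, which is how the U11-binding splicing enhancer of these genes is known to be built. The pair is shown here in capitals, 5′ to 3′, for Rnpc3 at chr3:113607229-113607258, minus strand, in the 3′ UTR (in another coding transcript, an intron), and for Snrnp48 at chr13:38214666-38214695, plus strand, in an intron of 2 coding transcripts that another annotated transcript retains (GENCODE M21 transcripts, build GRCm38, the assembly of mm10).
Rnpc3: gtGTATCCTTtcttGTATCCTTttcgggca
Snrnp48: caGTATCCTTtttgcaaatgATATCCTTtt
The starts of the paired sites are 12 bases apart in Rnpc3 and 18 in Snrnp48. In Snrnp48 the first site of the pair is also the start of an annotated intron (chr13:38214668-38215063). Among 21951 protein-coding genes, 2512 (11.4%) held at least 1 such site in an annotated transcript. A pair with starts 8 to 30 bases apart was held by 9 (0.041%), these 2 members included. Introns could be searched only where an annotated transcript retains them. Sites in other introns, of the members or of other genes, could not be seen. Counts per gene do not show whether the exons around a site were spliced differently.

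The RNA partners of the proteins show what the sites can pair with. Below are the first 40 bases of the annotated U12 and U11 RNA genes, read as DNA; the capitals mark the longest exact complement, 7 bases of the branch site motif TTCCTTAAC for U12 and 4 bases of GTATCCTT for U11.
Rnu12: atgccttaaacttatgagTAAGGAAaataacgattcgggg
Rnu11: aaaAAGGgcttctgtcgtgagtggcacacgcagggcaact
Rnu12 had 2.69, 2.68 and 3.10 CPM in wild-type heads and 4.02, 3.68 and 2.44 CPM in mutant heads. Rnu11 was read at 2.50, 5.93 and 7.32 CPM and at 4.68, 5.68 and 1.90 CPM. Neither passed the test (edgeR adjusted p = 0.536 and 0.739), and the groups overlapped in both. The annotated RNAs are 151 and 134 bases long, and how well the libraries hold RNAs of this length was not tested.

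**Figure D1:**
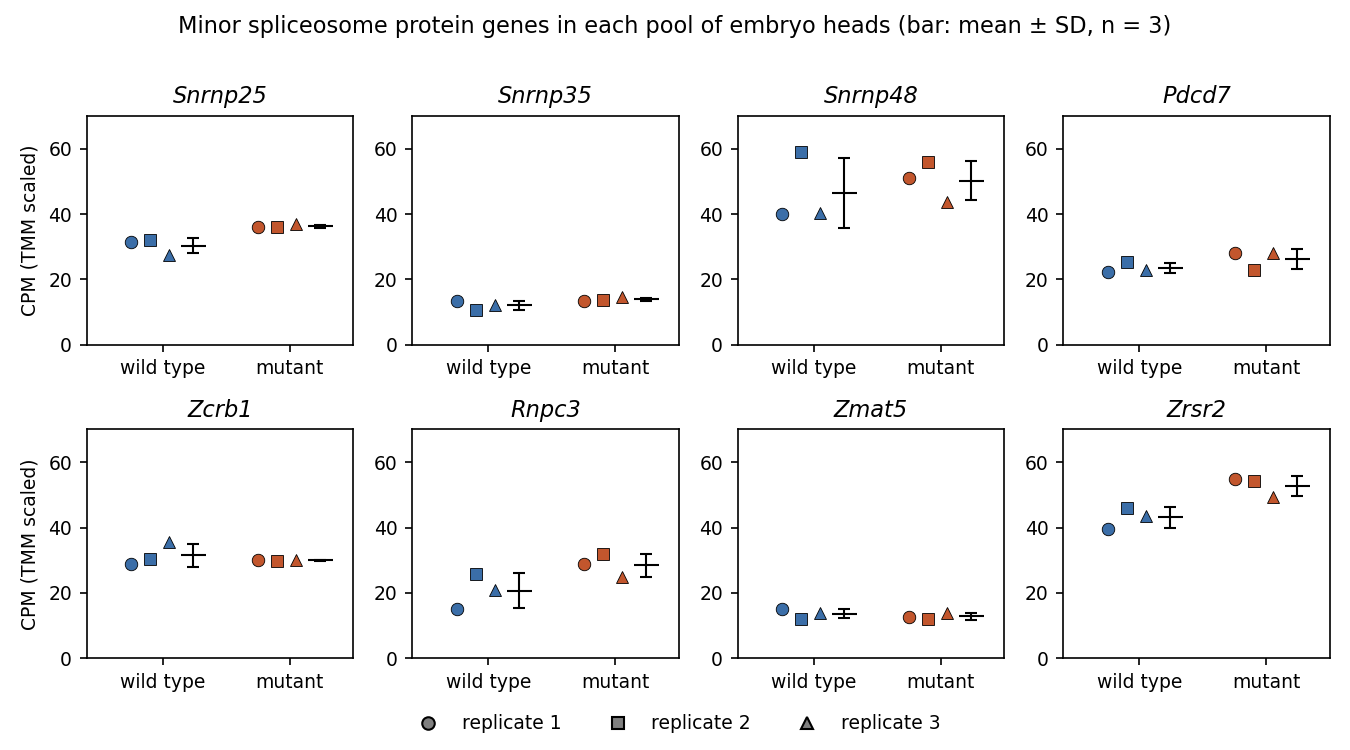
CPM of the 8 members in each pool, wild type in blue and mutant in orange, with the mean and SD of 3 pools at the side. The mutant points lie above all wild-type points in Snrnp25, Snrnp35 and Zrsr2, while Rnpc3 and Snrnp48 show the widest spread between pools of a genotype.

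Snrnp25, Snrnp35, Snrnp48 and Pdcd7 encode proteins of the U11 side. Snrnp25 (ENSMUSG00000040767, chromosome 11, 32205415 to 32208984, plus strand) encodes a small U11-associated protein. It was read at 31.5, 31.9 and 27.6 CPM in wild-type heads and 35.9, 36.1 and 36.8 CPM in mutant heads. The mutant pools lay close together and all above the wild type. This gave a log2 fold change of 0.26 (SE 0.0953, 95% interval 0.06 to 0.46, edgeR adjusted p = 0.116). It stayed positive in all 19 alternative settings, some of which repeat the reported value, between 0.19 and 0.30, and past the threshold in none.

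Snrnp35 (ENSMUSG00000029402, chromosome 5, 124483134 to 124491124, plus strand) encodes the U11 counterpart of the U1 70K protein. Its levels were 13.3, 10.6 and 12.2 CPM in the wild-type pools against 13.5, 13.8 and 14.5 CPM in the mutant pools. The groups did not overlap, but the highest wild-type pool and the lowest mutant pool were nearly level. The log2 fold change of 0.19 (SE 0.133, 95% interval -0.09 to 0.47) had an edgeR adjusted p of 0.411. It is, with Zmat5, among the lowest members in counts, down to 75 in wild-type replicate 2.

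Snrnp48 (ENSMUSG00000021431, chromosome 13, 38204938 to 38227665, plus strand) encodes a zinc finger protein that contacts the 5′ splice site within U11. It was read at 40.1, 58.9 and 40.3 CPM in wild-type heads and 51.1, 55.8 and 43.7 CPM in mutant heads. Wild-type replicate 2 was the highest of the 6 pools, so the groups overlapped fully. Its log2 fold change came to 0.13 (SE 0.148, 95% interval -0.19 to 0.46, edgeR adjusted p = 0.638). Without wild-type replicate 2 it was 0.33 (edgeR adjusted p = 0.13), the highest value under any setting tried. Pdcd7 (ENSMUSG00000041837, chromosome 9, 65346104 to 65359643, plus strand) encodes a U11 protein that binds the RNPC3 protein and so helps to bridge the di-particle. Its wild-type levels were 22.3, 25.3 and 22.9 CPM and its mutant levels 27.9, 22.7 and 28.0 CPM. Mutant replicate 2 lay inside the wild-type range and the other mutant pools above it, with a log2 fold change of 0.16 (SE 0.112, 95% interval -0.07 to 0.40, edgeR adjusted p = 0.405).

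Rnpc3 (ENSMUSG00000027981, chromosome 3, 113605067 to 113630149, minus strand) encodes the protein with RNA recognition motifs that binds U12 RNA and forms the other side of the bridge. It was read at 15.2, 25.9 and 20.8 CPM in wild-type heads and 28.9, 31.8 and 24.8 CPM in mutant heads. The lowest mutant pool was just under the highest wild-type pool, and the highest wild-type pool was 1.70 times the lowest. The log2 fold change was 0.49 (SE 0.165, 95% interval 0.13 to 0.85, edgeR adjusted p = 0.103). It was past the threshold without wild-type replicate 2 (0.67, edgeR adjusted p = 0.0325), with all genes kept that had at least 1 read (0.49, edgeR adjusted p = 0.00187) and with a covariate of Y-linked reads (0.48, edgeR adjusted p = 0.00932). Without wild-type replicate 1 it was 0.32 (edgeR adjusted p = 0.148).

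Reads of Y-linked genes differed between pools of a genotype. Wild-type replicate 1 and mutant replicate 3 held 1 read each on the Y-linked genes Ddx3y, Uty, Kdm5d and Eif2s3y, against 344 to 664 in the other 4 pools. These 2 pools had the lowest Rnpc3 level of their genotype, 15.2 and 24.8 CPM. They were also the lowest of their genotype for Zrsr2 (39.5 and 49.3 CPM) and Snrnp48 (40.1 and 43.7 CPM), but not for the other members. The part of this in the difference between the genotypes was not tested beyond the covariate. Among the other 4 pools the log2 fold change of Rnpc3 was 0.39 (edgeR adjusted p = 0.125). Rnpc3 overlaps Amy1, a salivary amylase gene whose annotated transcripts share 16.1% of the 50-base stretches of Rnpc3; Amy1 held 0 to 3 counts per pool.

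Zcrb1 (ENSMUSG00000022635, chromosome 15, 93386097 to 93398334, minus strand) encodes a protein of the di-particle with a zinc knuckle and an RNA recognition motif. Its levels were 28.7, 30.2 and 35.5 CPM in the wild-type pools and 30.04, 29.8 and 30.1 CPM in the mutant pools. The mutant pools were nearly identical and lay inside the wild-type range. The log2 fold change was -0.08 (SE 0.102, 95% interval -0.29 to 0.14, edgeR adjusted p = 0.703), so a fall below 0.817 times or a rise above 1.103 times the wild type is outside the interval. Without wild-type replicate 3 the sign turned (0.03, edgeR adjusted p = 0.891). Zcrb1 starts 16 bases from Pphln1, which runs the other way and had a log2 fold change of 0.05 (edgeR adjusted p = 0.748).

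Zmat5 (ENSMUSG00000009076, chromosome 11, 4704678 to 4737669, plus strand) encodes another zinc finger protein of the di-particle. It was read at 14.9, 12.01 and 14.0 CPM in wild-type heads and 12.6, 11.9 and 13.9 CPM in mutant heads, with overlapping groups. The log2 fold change was -0.11 (SE 0.135, 95% interval -0.39 to 0.18, edgeR adjusted p = 0.681), the lowest of the 8. The antisense neighbour Cabp7 overlaps 27.1% of its exonic bases and held 5 to 18 counts per pool; no source used here says whether the counting used strand. Zmat5 also starts 336 bases from Uqcr10, a gene of the respiratory chain on the opposite strand (log2 fold change 0.15, edgeR adjusted p = 0.291). A protein-coding start on the opposite strand within 1000 bases is found for 10.8% of 22028 protein-coding genes, and for these 2 of the 8 members.

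Zrsr2 (ENSMUSG00000031370, X chromosome, 163935443 to 163958661, minus strand) encodes a relative of U2AF1 that recognises the 3′ splice site of U12-type introns. It was read at 39.5, 46.1 and 43.7 CPM in wild-type heads and 54.9, 54.2 and 49.3 CPM in mutant heads. All mutant pools lay above all wild-type pools. The log2 fold change was 0.30 (SE 0.0911, 95% interval 0.11 to 0.49), and it missed the threshold narrowly (edgeR adjusted p = 0.0598, unadjusted p = 0.00448). The value moved little, from 0.24 to 0.35 over 19 alternative settings, some of which repeat the reported value. It came past the threshold in 6 of them, 1 of which only relaxed the threshold to 0.1. It was past the threshold with Y-linked reads as a covariate (0.30, edgeR adjusted p = 0.0196) and not within the 4 pools that held Y-linked reads (0.28, edgeR adjusted p = 0.115). The X-linked RNA Xist, which is made in female cells, ran from 264 to 635 CPM in the wild-type pools and from 213 to 366 CPM in the mutant pools, and was not highest in the pools with 1 Y-linked read (381 and 278 CPM). None of the 50-base stretches of Zrsr2 occurred in a transcript of another gene, its intronless relative Zrsr1 included.

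Among the tested genes whose pattern over the 6 pools was most like that of Zrsr2, the member with the smallest p, were Foxj3 and Cldnd1. After each gene's mean was subtracted, their log2 CPM values differed from those of Zrsr2 by 0.0218 and 0.0339 in root mean square, among 12485 genes ranked. Their own log2 fold changes were 0.29 and 0.33, and they did not pass either (edgeR adjusted p = 0.0706 and 0.0647). Values near those of Zrsr2 follow from the way these genes were picked.

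**Figure D2:**
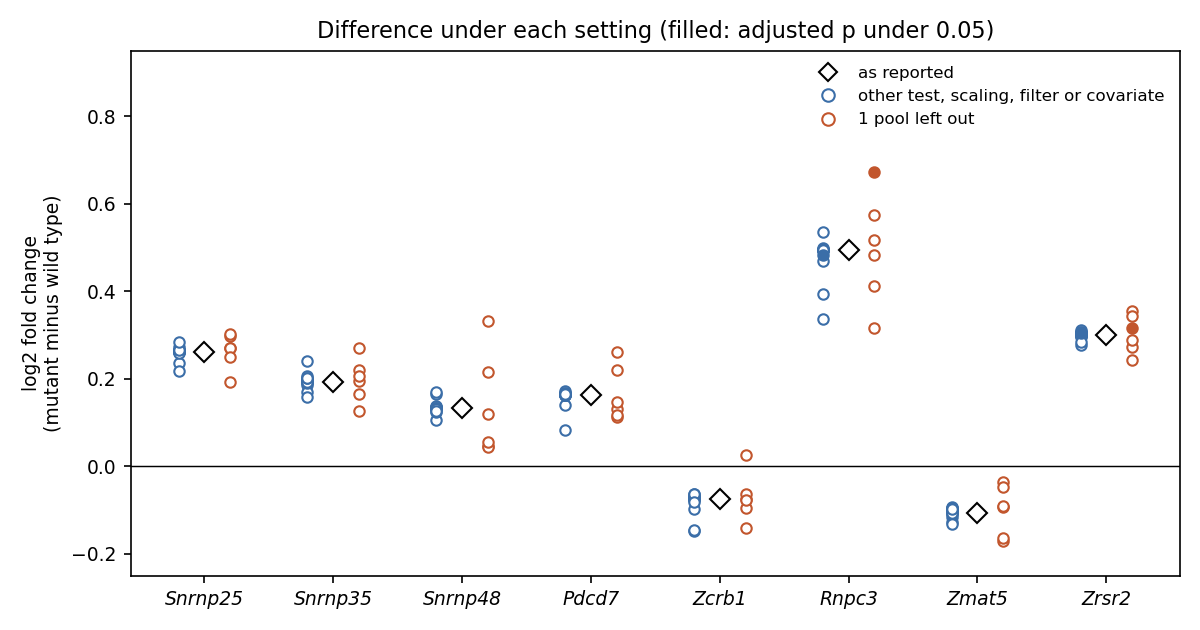
Log2 fold change of each member, mutant minus wild type, as reported (diamond) and under other settings (circles), with filled symbols where the adjusted p was under 0.05. Filled symbols occur for Rnpc3 and Zrsr2 only, and only Zcrb1 has a value on the other side of 0, at 0.03.

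As a group the 8 members had a median log2 fold change of 0.18, beside 0.00 for all tested genes, and ran from -0.11 to 0.49. Of the 8 values, 6 were positive, against 50.3% of all tested genes, and 2 were negative, against 49.7%. The mutant pools were all above the wild type in 3 of 8, against 13.8% of tested genes, and all below in 0 of 8, against 14.4%. These counts describe the list and set it apart from no other list. The summed level of 5 neural crest markers was 238 to 249 CPM in the wild-type pools and 183 to 204 CPM in the mutant pools, and 1 of the 5 fell. That of 4 surface ectoderm markers was 340 to 367 and 395 to 453 CPM, and that of 4 endothelial markers 168 to 190 and 205 to 219 CPM; 0 of 4 and 1 of 4 rose. No marker of these lists was at 0 in all pools, and their part in the values of the members was not tested. The neural tube markers (331 to 365 and 346 to 383 CPM) and head mesoderm markers (84.1 to 98.9 and 82.5 to 91.9 CPM) overlapped between the groups, as did those of erythroid cells, heart and yolk sac.

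**Figure D3:**
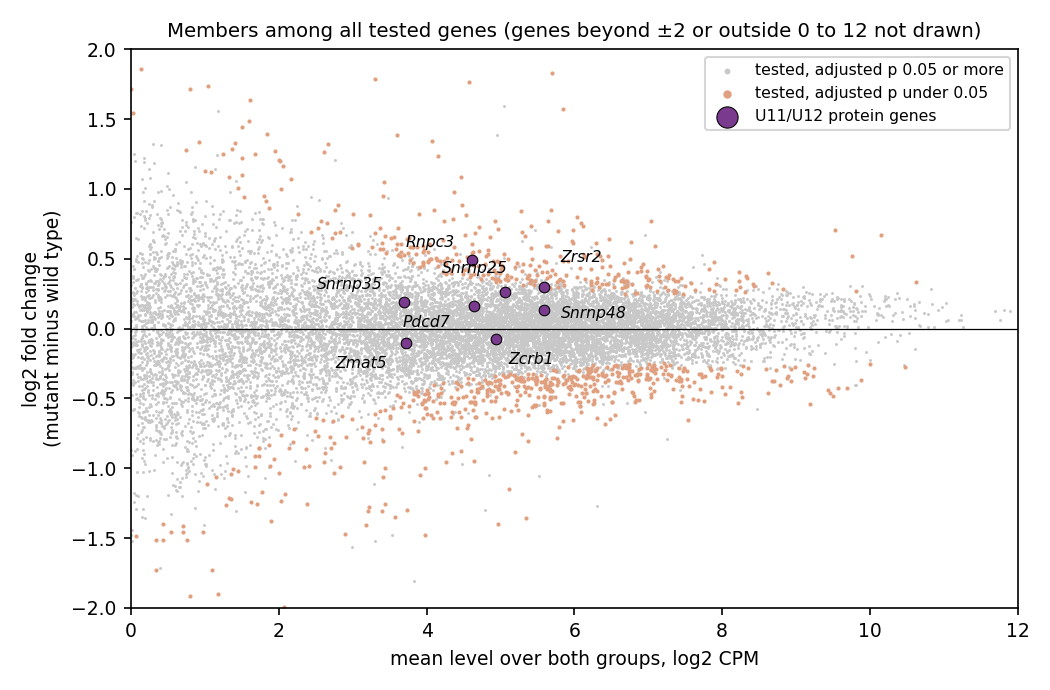
Log2 fold change, mutant minus wild type, against the mean level in log2 CPM for 13775 tested genes, with the 8 members in purple; 233 genes outside the axes are not drawn. The members lie at intermediate levels among genes that did not pass, between -0.11 and 0.49.

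Per kilobase of the longest coding transcript, the wild-type level ran from 36.9 ± 2.93 CPM per kb for Snrnp25 (SD, n = 3 pools) and 35.9 ± 4.04 for Zcrb1 to 4.40 ± 1.14 for Rnpc3. Between them stood Snrnp48 with 26.02 ± 6.05, Zmat5 with 17.2 ± 1.87, Zrsr2 with 11.1 ± 0.861, Snrnp35 with 10.2 ± 1.17 and Pdcd7 with 9.72 ± 0.647 CPM per kb. The ranges of Snrnp25 and Zcrb1 overlapped, as did those of Zcrb1 and Snrnp48 and those of Zrsr2, Snrnp35 and Pdcd7, so their order is not beyond the spread of the pools. The order depends on the length used. Over all annotated exonic bases, which include retained introns, Snrnp48 moved from the third to the seventh place (4.59 ± 1.07 CPM per kb), while Snrnp25 stayed first (29.1 ± 2.31) and Rnpc3 last (3.11 ± 0.804).

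Other proteins of the minor spliceosome were measured beside the members. Beside 2.65% higher and 3.88% lower among all tested genes, 1 of 8 such genes rose, 0 fell and 7 did not pass. Their median log2 fold change was 0.20. The gene that rose was Scnm1, which encodes a zinc finger protein of the active minor spliceosome. It went from 17.1, 18.2 and 16.6 CPM in the wild-type pools to 28.0, 24.6 and 21.7 CPM in the mutant pools, with no overlap. The rise of 0.53 in log2 (SE 0.117, edgeR adjusted p = 0.0138, 3 pools a genotype) was lost as a call without mutant replicate 1 or mutant replicate 2 (highest edgeR adjusted p = 0.133). Scnm1 lies 1.04 Mb from Sf3b4 on chromosome 3; Rnpc3, on the same chromosome, lies 17.4 Mb away, and no other member is on it. Whether the position near the deleted gene bears on Scnm1 was not tested. Rbm48 (0.30) and Armc7 (0.40), whose proteins bind each other in the minor spliceosome, did not pass, and Ppil2, which also serves the major spliceosome, had a value of -0.19 (edgeR adjusted p = 0.147).

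The SF3B subunits that the minor spliceosome shares ran from -0.24, in the deleted gene Sf3b4, to 0.70 in log2 fold change. Their median, Sf3b4 included, was 0.20. Sf3b3 (0.70), Sf3b1 (0.52) and Phf5a (0.27) rose, so 3 of 7 subunits were past the threshold, beside 6.52% of all tested genes, and 4 were not. Phf5a no longer passed when wild-type replicate 2 or a single mutant pool was left out. The 2 largest of these changes were larger than any among the U11/U12 proteins, but the difference between the lists was not tested.

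Genes of proteins that do the matching jobs in the major spliceosome were listed together with those of the shared Sm ring. The 17 genes of this list had a median log2 fold change of 0.17, and no median was taken without the Sm ring. Of these, 2 were higher and 0 lower, beside 2.65% and 3.88% of all tested genes, and 15 did not pass. Both that rose, Snrpe (0.36, edgeR adjusted p = 0.0382) and Snrpg (0.27, edgeR adjusted p = 0.0497), encode proteins of the Sm ring, which U11 and U12 also carry. Both calls were lost when any 1 pool other than wild-type replicate 3 was left out. Set beside its U1 counterpart Snrnp70 (0.01, SE 0.0705), Snrnp35 had a value of 0.19, and set beside U2af1 (0.14, SE 0.0805), Zrsr2 had 0.30. None of these 4 genes passed, and the differences within the pairs were not tested.

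**Figure D4:**
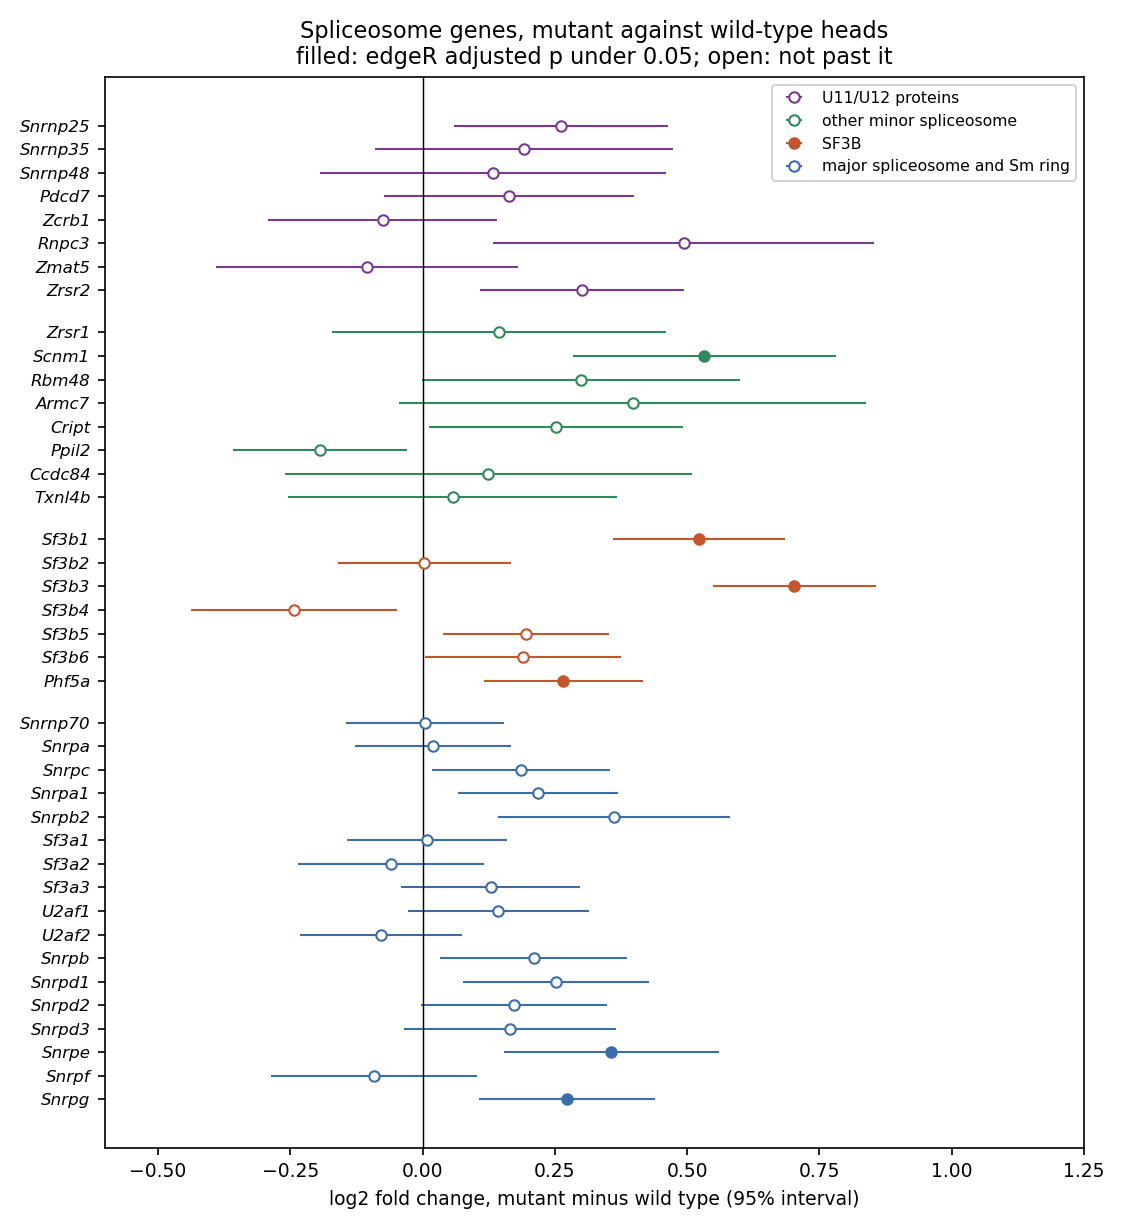
Log2 fold change with its 95% interval for the 8 U11/U12 protein genes, 8 other minor spliceosome genes and 7 SF3B subunits. The last 17 genes are those of the major spliceosome and the shared Sm ring. Symbols are filled where the adjusted p was under 0.05. All 8 members are open symbols; the filled ones are Scnm1, Sf3b1, Sf3b3, Phf5a, Snrpe and Snrpg.

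Genes whose introns carry letters of the U12 type could be listed only in part, and by sequence alone. Whether the minor spliceosome removes these introns was not tested. Introns were read from annotated transcripts that retain them, which gave 14459 of 250739 introns in protein-coding genes. Among them 30 genes held an intron that starts with ATATCCTT or GTATCCTT and has a match to TTCCTTAAC, with at most 2 mismatches, before its 3′ end. Of the 28 that were tested, 1 rose, 2 fell and 25 did not pass, beside 2.65% and 3.88% of all tested genes. Their median log2 fold change was -0.10, beside 0.00. With the 5′ splice site letters alone, a list that includes the member Snrnp48, 2 rose and 3 fell. With at most 1 mismatch in the branch site match 1 rose and 1 fell. Ssr3, a gene of protein import into the endoplasmic reticulum, rose by 0.33 (SE 0.0884, edgeR adjusted p = 0.0389). Exosc5, an RNA exosome subunit gene, fell by 0.43 (SE 0.0965, edgeR adjusted p = 0.016), and Spc24, a kinetochore gene, fell by 0.40 (SE 0.0916, edgeR adjusted p = 0.0175). The calls of Exosc5 and Spc24 were lost without mutant replicate 1 or mutant replicate 2, that of Exosc5 also without wild-type replicate 2. That of Ssr3 was lost in 5 of the 6 fits with 1 pool left out, all but the fit without wild-type replicate 3.

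The last 40 bases of these introns show the branch site match in capitals, 5′ to 3′, for Ssr3 (chr3:65382035-65382991, minus strand), Exosc5 (chr7:25664449-25665420, plus strand) and Spc24 (chr9:21757395-21757684, minus strand).
Ssr3: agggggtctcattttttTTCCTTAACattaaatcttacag
Exosc5: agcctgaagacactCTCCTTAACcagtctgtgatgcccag
Spc24: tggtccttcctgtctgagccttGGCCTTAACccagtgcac
The intron of Spc24 ends in AC, the mark of the rarer form that begins with AT, and the other 2 end in AG. Counts per gene do not separate reads of these introns, which lie in exons of the transcripts that retain them, from those of other exons.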

How the data were processed

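The authors deposited 1 table of raw read counts per pool, with 54532 Ensembl gene IDs and no normalisation. The genome build was mm10, per the submitters' processing notes, and the libraries were total RNA libraries, per the labels' protocols. No source used here names the aligner, the counter, its annotation or its strand setting. GENCODE M21 (GRCm38) named 54495 of the IDs. The counts were filtered with filterByExpr, scaled with TMM and tested with edgeR 4.0.16 (robust quasi-likelihood F test, two-sided, limma 3.58.1, R 4.3.3), with Benjamini-Hochberg adjustment over 14008 genes and a threshold of 0.05. The SE is the log2 fold change divided by the square root of F. Levels are CPM on the scaled library sizes, with SD over 3 pools. Alternatives were DESeq2 1.42.0, limma-voom, other scalings and filters, covariates and leaving out each pool. The test was tried on simulated counts, where it recovered 43 of 67 genes changed 1.5-fold (64.2%). There 13 of 176 calls were false. Changes smaller than 1.5-fold, such as those fitted for the members, were not simulated.

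The members and gene lists were chosen with earlier results of these data known. All 8 members are named, with every gene of the spliceosome lists that passed, and the 3 genes most like the member of smallest p, by log2(CPM + 0.5), of which 1 is not reported here. Rbm48, Armc7 and Ppil2 were chosen after their values were seen. The genes with candidate minor introns were found by sequence (5′ splice site letters, and a branch site match with at most 2 mismatches). They were tested in the same fit. Their introns could be read only from transcripts that retain them, a choice made after seeing the data, because no genome sequence was used here. Same-numbered pools did not deviate together. The mitochondrial genes held 0 counts in every pool.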

Additional observations from a re-analysis of the deposited data

How the results depend on the processing

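Of 152 values of members under other settings, 142 kept their direction and their side of the threshold and 9 came past it. The sign turned in 1, Zcrb1 without wild-type replicate 3 (0.027, with -0.14 to 0.027 over the pools left out). Not all of these values are separate checks. A filter of at least 1 CPM in 3 pools kept the same number of genes and gave the reported values again. The threshold of 0.1 was applied to the reported fit, so no direction could change there. The count of members that rose, 0 in the report, was 1 with upper quartile scaling, 2 without a filter, 2 with Y-linked reads as a covariate, 1 with exon length and GC correction and 1 at a threshold of 0.1, and 0 to 1 with 1 pool left out. No member fell under any setting run. The 2 called genes of the major spliceosome and Sm ring became 0 without robust estimation and 5 with the Y covariate. They became 0 among the 4 pools that held Y-linked reads, 1 with length and GC correction, 5 at 0.1 and 0 to 4 with 1 pool left out. The other minor spliceosome genes called numbered 0 to 2 and the SF3B subunits 2 to 5 with 1 pool left out. Over all genes, 371 rose and 543 fell. With length and GC correction 644 rose and 528 fell, with the Y covariate 758 and 886, and at 0.1 663 and 887. Without a filter 624 rose, and among those 4 pools 286 fell. With 1 pool left out, 107 to 890 rose and 123 to 920 fell. The cause of these shifts was not tested. The replicate number as a block left the count of members that rose at 0 (Zrsr2 edgeR adjusted p = 0.0997, Rnpc3 0.0564) and gave 268 higher and 426 lower genes; deviations of same-numbered pools correlated at -0.165, 0.0629 and -0.0614. Of the genes with candidate minor introns, 0 rose without robust estimation, with the block and in the 4 pools. Among these genes 2 rose with limma-voom, without a filter, with the Y covariate, with length and GC correction and at 0.1. With 1 pool left out, 0 to 1 of them rose and 0 to 2 fell. The SE was largest for Rnpc3 (0.165) and Snrnp48 (0.148), not for the members of lowest count.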
